A study of Homo sapiens with 9 samples.

Results

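A set of 10 genes of the killing machinery of cytotoxic T cells and natural killer cells were followed across the libraries: the granule proteases GZMA, GZMB, GZMK and GZMM, the granule proteins PRF1, GNLY and NKG7, the transcription factor EOMES and the lectin-like receptors KLRK1 and KLRD1. They were taken by symbol, and all 10 were found among the 26190 rows with values. Messenger RNA was sequenced from Jurkat, a human cell line established from T-cell acute lymphoblastic leukaemia, grown in complete RPMI medium with no treatment named in the labels. WT is the unedited line, and KO1 and KO2 are lines edited with CRISPR/Cas9 at EZH2, the enzyme of Polycomb repressive complex 2 that methylates histone H3 and so keeps genes silent. Each group has 3 libraries, described as biological triplicates, and each edited line is 1 line, with no statement in the labels on whether it is a clone. The p-values therefore measure the spread between cultures of a line and not the spread between independent edits.

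Cytotoxic lymphocytes kill by releasing granules onto a target cell. Perforin, encoded by PRF1, forms pores through which granzymes, a family of serine proteases, reach the target's cytoplasm and cleave proteins there. The T-box factors EOMES and TBX21 drive this programme in CD8 T cells and natural killer cells, and the receptors NKG2D (KLRK1) and CD94 (KLRD1) regulate its release. Most of these genes are low in developing T cells and are switched on in mature killer cells.

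Upstream sequences are shown for members that entered the test described below and were higher in an edited line, so that their base content can be compared. RefSeq windows on GRCh38.p14 were matched by symbol for 6 members (GZMA, GZMB, PRF1, GNLY, NKG7 and EOMES), and GZMK, GZMM, KLRK1 and KLRD1 had no entry in that table. The 250 bases before the annotated start are printed 5′ to 3′ for 4 of them: GZMA at chr5:55102396-55102645 on the plus strand, and PRF1 at chr10:70602742-70602991, NKG7 at chr19:51372655-51372904 and EOMES at chr3:27722324-27722573 on the minus strand. Capitals mark matches, on either strand, to the letters TGTGGT (a RUNX core), GGTGTG (a T-box core) or AGGAAG (an ETS core).
GZMA: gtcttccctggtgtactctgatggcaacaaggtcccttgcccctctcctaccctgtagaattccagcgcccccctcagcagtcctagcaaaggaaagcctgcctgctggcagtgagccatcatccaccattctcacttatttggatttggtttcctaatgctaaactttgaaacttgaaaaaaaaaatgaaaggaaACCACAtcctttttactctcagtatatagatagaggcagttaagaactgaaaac
PRF1: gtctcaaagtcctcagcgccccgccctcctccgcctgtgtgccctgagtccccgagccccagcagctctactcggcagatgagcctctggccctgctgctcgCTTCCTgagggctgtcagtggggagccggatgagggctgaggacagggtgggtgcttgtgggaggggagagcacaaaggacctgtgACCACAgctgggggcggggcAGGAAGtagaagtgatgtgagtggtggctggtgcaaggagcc
NKG7: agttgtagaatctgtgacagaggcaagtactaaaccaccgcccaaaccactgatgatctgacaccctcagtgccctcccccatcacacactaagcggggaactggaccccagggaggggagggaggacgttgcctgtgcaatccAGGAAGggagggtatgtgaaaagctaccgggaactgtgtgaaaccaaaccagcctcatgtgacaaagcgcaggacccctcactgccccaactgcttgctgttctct
EOMES: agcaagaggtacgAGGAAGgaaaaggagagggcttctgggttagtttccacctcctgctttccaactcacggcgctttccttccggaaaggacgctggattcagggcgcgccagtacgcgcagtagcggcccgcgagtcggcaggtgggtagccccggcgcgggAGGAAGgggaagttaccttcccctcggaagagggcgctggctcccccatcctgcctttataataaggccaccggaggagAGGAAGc
GZMA had 1 RUNX match, PRF1 had 1 RUNX and 2 ETS matches, NKG7 had 1 ETS match and EOMES had 3 ETS matches. In the windows not printed, GZMB had 2 RUNX matches and GNLY had 1 RUNX and 1 T-box match. Among all 35116 RefSeq windows of the same length, 11% held the RUNX letters, 14.2% the T-box letters and 28.7% the ETS letters. A match describes the letters and is not evidence of binding. EOMES had 19 CpG dinucleotides in its window, an observed over expected ratio of 0.80, whereas GZMA had 1 (ratio 0.083), NKG7 had 5 (0.259) and PRF1 had 8 (0.305). Of those not printed, GZMB had 1 (0.059) and GNLY had 3 (0.167). The median of all windows was 0.558, so the EOMES window lay above it and the other 5 matched members lay below it.

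**Figure D1:**
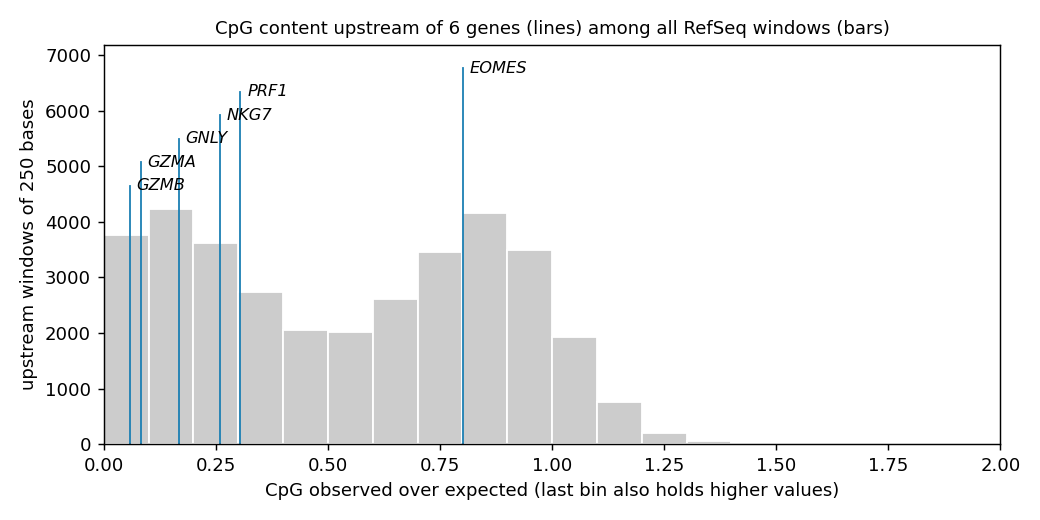
CpG observed over expected in the 250 bases upstream of 6 genes (blue lines) and the number of RefSeq windows in each bin (bars). EOMES stands at 0.80, above the median of 0.558, and the lines of GZMB, GZMA, GNLY, NKG7 and PRF1 all stand at or below 0.305.

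Values are FPKM (fragments scaled to transcript length and library size), which can be compared between genes because of the length term. In each library 11028 to 11415 genes reached 1 FPKM. Relative depth, from the steps between low values, ran from 0.963 to 1.16 against WT replicate 3. EZH2 stood at 74.4, 77.6 and 79.5 FPKM in WT, at 108, 107 and 103 in KO1 and at 87.9, 89.9 and 90.7 in KO2. A value over the whole transcript does not check an edit, so each direction rests on the labels. All 9 listed T-lineage markers reached 1 FPKM, with sums of 1499 to 1603 FPKM in WT, 1319 to 1457 in KO1 and 1519 to 1556 in KO2. These sums hide shifts of single markers. CD2 went from 35.8 ± 0.774 FPKM in WT to 90.6 ± 3.59 in KO1 and 4.38 ± 0.789 in KO2. CD5 went from 34.9 ± 2.45 to 14.5 ± 0.542 and 18.7 ± 0.764, and CD7 from 49.7 ± 5.09 to 90.0 ± 10.9 and 89.0 ± 1.18. Of 8 natural killer markers, 3 reached 1 FPKM in a library, and KLRF1 and KLRC1 were listed at 0 in all 9 libraries. The summed level of the 8 was 0.610 to 1.29 FPKM in WT, 20.2 to 23.1 in KO1 and 5.14 to 6.21 in KO2. In KO1 and KO2 most of it was NCAM1, an adhesion molecule (CD56) that neurons also carry, which by group stood at 0.0913 ± 0.0799, 17.6 ± 0.391 and 4.03 ± 0.260 FPKM (SD, n = 3). The pair of CD8 T-cell markers summed to 0.974 to 1.77 FPKM in WT, 2.07 to 2.48 in KO1 and 1.84 to 2.11 in KO2. Of the pair, CD8B did not pass in KO1 or KO2 against WT (limma adjusted p = 0.158 and 0.0950), and CD8A had too few libraries at 1 FPKM to be tested. B-cell markers summed to 24.6 to 29.0, 48.8 to 58.4 and 19.3 to 22.4, with PAX5 listed at 0. The part of these markers in the results below was not tested, and in bulk RNA more cells of a type and more RNA per cell cannot be told apart.

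GZMA, PRF1 and NKG7 were higher in both edited lines, and EOMES and GZMK were higher in KO2 alone of the edited lines. GZMB and GZMM were low throughout and higher in both lines, and GNLY, KLRK1 and KLRD1 stayed near 0. Genes entered the test when they had 1 FPKM or more in 3 or more libraries. By that rule 6 members were tested (GZMA, GZMK, GZMM, PRF1, NKG7 and EOMES) and 4 were not (GZMB, GNLY, KLRK1 and KLRD1). GZMK passed the filter through its KO2 libraries alone, EOMES needed its KO2 libraries to pass (2 other libraries reached 1 FPKM), and PRF1 and GZMM passed through edited libraries alone, so counts over the tested members are a description only. In KO1 against WT, 4 of the 6 passed the test as higher and 0 as lower, where 67.5% of all 11737 tested genes passed and 35.6% passed as higher (limma, Benjamini-Hochberg adjusted p under 0.05). In KO2 against WT all 6 passed as higher, where 64.7% of all genes passed and 38.1% passed as higher. The libraries of a group lay wholly above those of WT for 5 of the 10 members in KO1 and for 9 of the 10 in KO2. Of these 9, KLRK1 and KLRD1 were separated by values of about 1 fragment, and scaled by relative depth the nearest KO2 and WT libraries stood at about the same value (1.00 and 1.00 times the lowest for KLRK1, 1.00 and 1.01 for KLRD1). Among the 18182 rows above 0 in a library lying wholly above WT held for 29.3% and 31.3%, and 23.7% and 20.8% lay wholly below WT, as no member did.

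**Figure D2:**
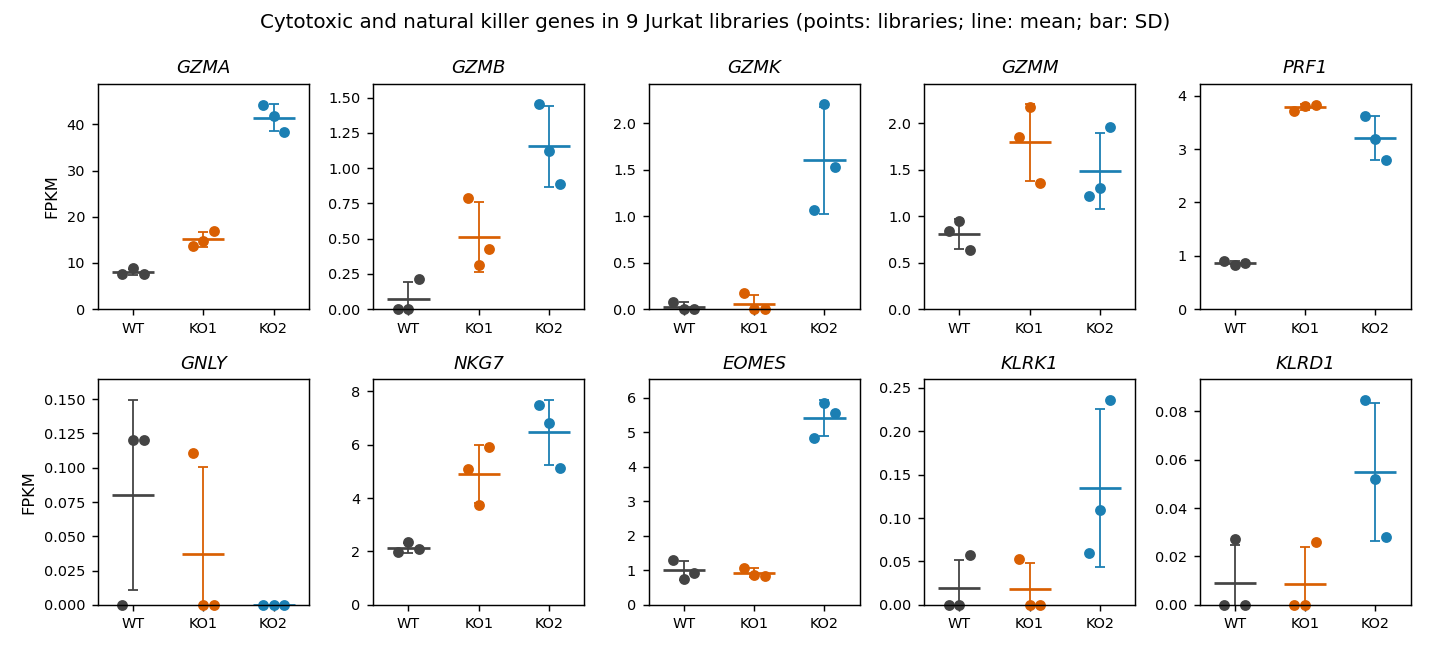
FPKM of the 10 genes in each library (points), with the mean (line) and SD (bar) of 3 libraries per group; each panel has its own axis from 0. GZMA reaches 38.4 to 44.2 in KO2, EOMES is near 1 in WT and KO1 and above 4.8 in KO2, and GNLY, KLRK1 and KLRD1 stay below 0.25 throughout.

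Of the 4 granzymes, GZMA, a tryptase, was the most abundant in every group. It stood at 7.62, 8.83 and 7.68 FPKM in WT, at 13.6, 14.8 and 16.9 in KO1 and at 44.2, 41.8 and 38.4 in KO2. The 3 groups did not overlap, with WT lowest and KO2 highest. The mean was 1.88 times that of WT in KO1 and 5.16 times in KO2. The fit used log2(FPKM + 1), so changes of low genes are understated, and on it the change was 0.83 ± 0.09 in KO1 (SE, limma adjusted p = 9.04e-06) and 2.23 ± 0.09 in KO2 (adjusted p = 9.86e-09).

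GZMK, a second tryptase whose gene lies next to GZMA, was almost silent outside KO2. Its values were 0.0817, 0 and 0 FPKM in WT and 0.171, 0 and 0 in KO1. In KO2 they were 1.06, 2.2 and 1.53, so all KO2 libraries lay above all others. The log2 change was 1.32 ± 0.15 in KO2 (limma adjusted p = 2.32e-05) and 0.04 ± 0.15 in KO1 (adjusted p = 0.835). GZMK entered this fit through its KO2 libraries alone, so these p-values are a description only. Without a filter the adjusted p in KO2 was 0.000136 (limma). With a pseudocount of 0.1 in place of 1, the KO2 change was 3.74.

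GZMB, the aspartate-cleaving granzyme that activates caspases, stayed under the filter. It was listed at 0, 0 and 0.214 FPKM in WT, at 0.790, 0.315 and 0.424 in KO1 and at 1.45, 1.12 and 0.887 in KO2. The groups did not overlap, and each pair had p = 0.1 in the two-sided exact permutation test, the smallest p that 3 against 3 libraries allow. In a fit with no filter, GZMB was higher in KO1 (log2 change 0.49, limma adjusted p = 0.0200) and in KO2 (1.01, adjusted p = 0.000541), and higher in KO2 than in KO1 (0.52, adjusted p = 0.0359). In that fit 26.7%, 26.5% and 10.6% of rows passed as higher in these comparisons. GZMH, the paralogue beside GZMB, stood at 0.447, 0.709 and 0.552 FPKM in WT and at 1.03, 1.09 and 0.600 in KO1. It reached 2.0, 1.92 and 2.3 in KO2 (0.97 ± 0.12, adjusted p = 3.89e-05) and did not pass in KO1 (0.27 ± 0.12, adjusted p = 0.0620). GZMH entered the fit through edited libraries alone, so its p-values are a description only. GZMB and GZMH are close in sequence and may share reads.

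GZMM, a granzyme that prefers methionine and leucine, was the weakest of the tested changes in KO2. Its values were 0.842, 0.952 and 0.632 FPKM in WT, 1.85, 2.18 and 1.36 in KO1 and 1.21, 1.30 and 1.96 in KO2. The edited libraries lay above all WT libraries and overlapped each other. The log2 change was 0.62 ± 0.14 in KO1 (limma adjusted p = 0.00263) and 0.45 ± 0.14 in KO2 (adjusted p = 0.0163). GZMM entered this fit through edited libraries alone, so these p-values are a description only. Without a filter the adjusted p was 0.00777 in KO1 and 0.0354 in KO2 (limma). The KO2 call was lost after quantile normalization (0.21, adjusted p = 0.230), without WT replicate 3 (0.38, adjusted p = 0.0610) and without KO2 replicate 3 (0.32, adjusted p = 0.0677). Its adjusted p ran from 0.00996 to 0.230 over 18 alternatives, and with a pseudocount of 0.1 the changes were 1.05 and 0.79.

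Of the other granule proteins, PRF1 and NKG7 rose in both edited lines. PRF1, the pore former, stood at 0.901, 0.836 and 0.872 FPKM in WT, at 3.72, 3.80 and 3.83 in KO1 and at 3.62, 3.19 and 2.79 in KO2. Each edited library was above 2.7 FPKM and each WT library below 1. The mean was 4.36 times that of WT in KO1 (log2 change 1.36 ± 0.08, limma adjusted p = 1.70e-07) and 3.68 times in KO2 (1.16 ± 0.08, adjusted p = 7.31e-07, and 1.76 with a pseudocount of 0.1). PRF1 entered this fit through edited libraries alone, so these p-values are a description only. Without a filter the adjusted p was 3.20e-06 in KO1 and 1.04e-05 in KO2 (limma).

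NKG7, a membrane protein of cytotoxic granules needed for their release, stood at 1.98, 2.35 and 2.09 FPKM in WT. It reached 5.10, 3.75 and 5.90 in KO1 and 7.47, 6.80 and 5.11 in KO2. Both edited lines were above WT and overlapped each other. The log2 change was 0.90 ± 0.15 in KO1 (limma adjusted p = 0.000286) and 1.24 ± 0.15 in KO2 (adjusted p = 3.21e-05). GNLY, which encodes the membrane-lysing peptide granulysin, was listed above 0 in 3 libraries only: WT replicates 2 and 3 at 0.120 each, and KO1 replicate 1 at 0.111. Scaled by relative depth, these 3 values were 1.01, 1.00 and 1.00 times the lowest, as single fragments would be. It was listed at 0 in all KO2 libraries.

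EOMES separated KO2 from both other groups. It stood at 1.31, 0.757 and 0.923 FPKM in WT, at 1.07, 0.875 and 0.826 in KO1 and at 4.83, 5.85 and 5.55 in KO2. WT and KO1 overlapped, and every KO2 library was above 4.8. The mean in KO2 was 5.44 times that of WT (log2 change 1.69 ± 0.11, limma adjusted p = 4.32e-07). EOMES needed its KO2 libraries to enter this fit, so its p-values there are a description only. Without a filter the adjusted p in KO2 was 9.45e-06 (limma). In KO1 the log2 change was -0.05 ± 0.11 (adjusted p = 0.740), and it was -0.34 after quantile normalization, where it passed as lower (adjusted p = 0.0206).

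The receptors were at the edge of detection. KLRK1 was listed at 0, 0 and 0.0573 FPKM in WT, at 0.0531, 0 and 0 in KO1 and at 0.0596, 0.109 and 0.236 in KO2. Scaled by relative depth, the 5 values above 0 were 1.00, 1.00, 1.00, 1.99 and 3.99 times the lowest, close to whole steps. KLRD1 was listed at 0, 0.0272 and 0 in WT, at 0, 0 and 0.0262 in KO1 and at 0.0847, 0.0519 and 0.0279 in KO2, or 1.01, 1.00, 3.01, 2.01 and 1.00 times the lowest. In FPKM all KO2 libraries lay above the others for both genes (p = 0.1 against either group in the exact permutation test). Scaled by relative depth, the lowest KO2 library of each gene held about 1 fragment, as did the libraries above 0 in WT and KO1. In the fit with no filter neither passed in KO2 against WT (limma adjusted p = 0.0534 for KLRK1 and 0.0666 for KLRD1). The read-through gene KLRC4-KLRK1, which shares exons with KLRK1, was at or below 1e-05 FPKM in each library. HCST, the adaptor through which NKG2D signals, was well above these levels at 9.0 ± 2.97 FPKM in WT, with 8.29 ± 0.955 in KO1 and 8.86 ± 3.11 in KO2. It did not pass in either line (limma adjusted p = 0.842 and 0.949).

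The edited lines were then compared with each other, which tests whether a gene changed by different amounts in the 2 lines. Of the 6 tested members, 3 passed as higher in KO2 and 0 as lower, where 30.6% of all genes passed, 18.3% as higher and 12.4% as lower. Of all calls in that comparison 59.7% were higher, against 49.0% after quantile normalization and 47.9% after median centring. EOMES differed by 1.74 ± 0.11 on the log2 scale (limma adjusted p = 2.75e-06), GZMA by 1.40 ± 0.09 (adjusted p = 1.70e-06) and GZMK by 1.28 ± 0.15 (adjusted p = 0.000137). With a pseudocount of 0.1 the order turned, at 3.55 for GZMK, 2.43 for EOMES and 1.46 for GZMA. EOMES and GZMK entered this fit through their KO2 libraries, so their p-values are a description only. Without a filter the adjusted p was 4.2e-05 for EOMES and 0.000607 for GZMK (limma). The mean of EOMES in KO2 was 5.85 times that in KO1, and that of GZMA was 2.75 times. PRF1, NKG7 and GZMM did not pass. PRF1 was lower in all KO2 libraries than in any KO1 library, by -0.19 ± 0.08 (adjusted p = 0.104, and 0.0493 without KO2 replicate 1). NKG7 differed by 0.34 ± 0.15 (adjusted p = 0.107, and 0.0496 without KO1 replicate 3 or 0.0371 without KO2 replicate 3). GZMM differed by -0.17 ± 0.14 (adjusted p = 0.400). KO2 libraries did not overlap KO1 libraries for 6 of the 10 members as higher and 1 as lower, where 20.8% and 15.4% of rows above 0 in a library did so. The 6 again include KLRK1 and KLRD1, for which the lowest KO2 library, scaled by relative depth, was no higher than the KO1 library above 0.

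**Figure D3:**
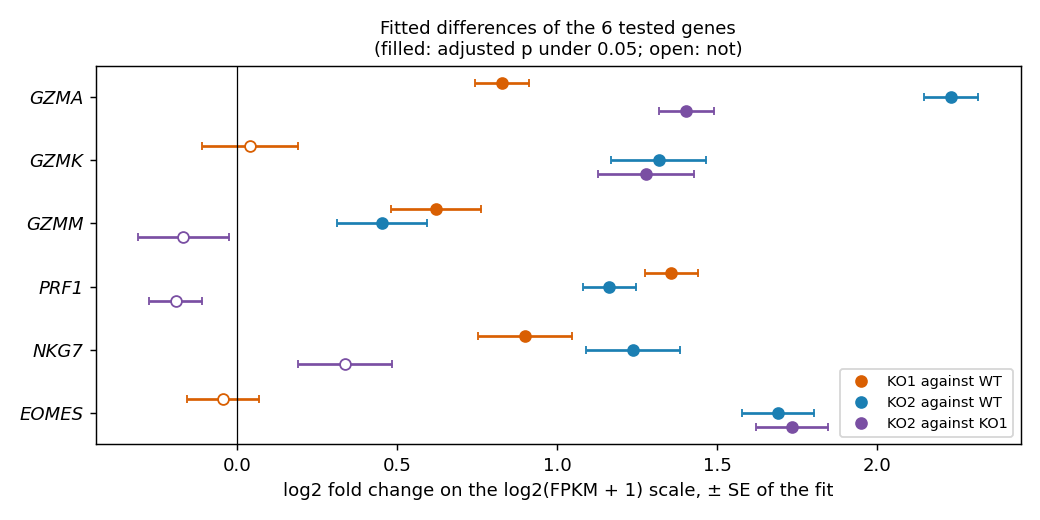
Log2 fold changes of the 6 tested genes on the log2(FPKM + 1) scale for the 3 comparisons, with the SE of the fit; filled points passed at adjusted p under 0.05. The comparisons share groups. EOMES and GZMK lie near 0 in KO1 against WT and above 1.2 in the other comparisons, and PRF1 lies at 1.36 and 1.16 against WT.

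The order of the members by FPKM changed with the group. In WT it was GZMA, NKG7, EOMES, PRF1 and GZMM, and the libraries of the last 3 overlapped. In KO1 it was GZMA, NKG7, PRF1, GZMM, EOMES and GZMB, and NKG7 and PRF1 overlapped. In KO2 it was GZMA, NKG7, EOMES, PRF1, GZMK, GZMM and GZMB. There NKG7 overlapped EOMES, and the last 3 overlapped each other. GNLY, KLRK1 and KLRD1 were below the genes named here in each group, as were GZMB and GZMK in WT and GZMK in KO1.

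The transcription factors known to act in cytotoxic and natural killer differentiation were read from a list of 43 genes, of which 33 were tested. In KO1, 15 rose and 15 fell (35.6% of all genes passed as higher and 31.9% as lower), with a median log2 change of 0.06 beside 0.02 over all genes. In KO2, 12 rose and 12 fell (38.1% and 26.6% of all genes), with a median of -0.01 beside 0.06. TBX21, the T-box partner of EOMES, was not tested. It stood at 0.0292, 0.102 and 0.170 FPKM in WT, at 0.883, 1.00 and 0.982 in KO1 and at 0.810, 0.873 and 0.558 in KO2. Its edited libraries lay above all WT libraries. In the fit with no filter it was higher in both lines (log2 change 0.83, limma adjusted p = 4.26e-05 in KO1; 0.66, adjusted p = 0.000191 in KO2), and KO2 did not differ from KO1 at the threshold (-0.17, adjusted p = 0.182). RUNX3, a partner of T-box factors in CD8 T cells, stood at 12.7 ± 1.11 FPKM in WT, with 11 ± 0.475 in KO1 and 12.3 ± 0.636 in KO2. It passed as lower in KO1 (-0.19 ± 0.07, adjusted p = 0.0315) and did not pass in KO2 (adjusted p = 0.622).

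Of the other factors on that list, the 4 with the largest changes were BHLHE40, ZBTB16, KLF2 and FOXO1. BHLHE40, a repressor induced by activation and hypoxia, went from 42.0 ± 2.52 FPKM to 4.05 ± 0.328 in KO1 and 5.84 ± 1.54 in KO2. ZBTB16 (PLZF), the factor of innate-like T cells, went from 0.164 ± 0.203 to 3.67 ± 0.308 and 4.02 ± 0.542. KLF2, which maintains lymphocyte quiescence and trafficking, went from 2.54 ± 0.586 to 11.5 ± 2.81 and 8.86 ± 0.598. FOXO1, which drives homing and memory genes, went from 0.817 ± 0.120 to 4.35 ± 0.0424 and 3.13 ± 0.0630. All 4 passed in both lines. ZBTB16 and FOXO1 entered the fit through edited libraries alone, so their calls are a description only. None of these values shows whether a factor acts on the members.

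Of 47 other effector and receptor genes of killer lymphocytes, 18 were tested. The counts below are to be read beside the shares of all genes, which were 35.6% higher and 31.9% lower in KO1 and 38.1% higher and 26.6% lower in KO2. In KO1, 7 rose and 6 fell, with a median log2 change of 0.22 beside 0.02 over all genes. In KO2, 10 rose and 4 fell, with a median of 0.49 beside 0.06. CTSW, a cysteine protease of cytotoxic lymphocytes, went from 7.37 ± 0.458 FPKM to 42.6 ± 5.89 in KO1 (log2 change 2.37 ± 0.09, limma adjusted p = 4.75e-09) and 30.1 ± 1.52 in KO2 (1.89 ± 0.09, adjusted p = 3.57e-08). ADGRG1 (GPR56), a receptor that marks cytotoxic cells, went the other way, from 5.71 ± 0.601 to 0.436 ± 0.0536 and 0.784 ± 0.0199. FGFBP2, secreted by killer cells, stood at 2.76 ± 0.408 in WT, and was listed at 0 in each KO1 library and at 0.169, 0 and 0 in KO2. Both passed as lower in both lines, but ADGRG1 and FGFBP2 entered the fit through WT libraries alone, so these calls are a description only.

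TNFSF10 and CD226 were chosen from the same list after their values had been seen. TNFSF10, the death ligand TRAIL, went from 3.13 ± 0.505 FPKM to 13.0 ± 0.218 in KO1 and 12.4 ± 0.287 in KO2 and passed in both. CD226, an activating receptor, went from 12.9 ± 1.09 to 5.84 ± 0.517 in KO1 and to 19.4 ± 0.998 in KO2, passing as lower in the former and higher in the latter (KO2 above KO1 by 1.58 ± 0.08, limma adjusted p = 3.20e-07). The death ligand FASLG was listed at 0 in WT, at 0.0449, 0 and 0 in KO1 and at 0.101, 0.0461 and 0.150 in KO2. IFNG, the cytokine that EOMES and TBX21 can activate, was listed at 0 in 8 libraries and at 0.0805 in KO2 replicate 3. KLRB1, KLRC1, KLRC2, KLRC3, KLRC4 and KLRF1, which lie in the same gene complex as KLRK1 and KLRD1, were listed at 0 in all 9 libraries.

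Of 33 listed genes of the machinery that makes and releases granules, 26 were tested. In KO1, 8 passed as higher and 12 as lower (median log2 change -0.06), and KO2 had 12 of each (median -0.02). The shares of all genes were 35.6% higher and 31.9% lower in KO1, and 38.1% and 26.6% in KO2. RAB27A, the small GTPase that docks granules, went from 8.52 ± 0.822 FPKM to 21.2 ± 1.24 in KO1 and 16.0 ± 0.270 in KO2. CALR, a chaperone also found in cytotoxic granules, went from 348 ± 6.18 to 1051 ± 24.2 and 995 ± 16.4. SYT7, a calcium sensor of granule fusion, went from 0.0951 ± 0.0138 to 1.52 ± 0.157 and 0.708 ± 0.0521. CORO1A, an actin regulator, fell from 199 ± 5.53 to 103 ± 2.89 and 115 ± 3.19. All 4 passed in both lines. SYT7 entered the fit through its KO1 libraries alone, so its calls are a description only.

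Of 9 listed protease inhibitors, 5 were tested. There were 2 higher and 1 lower in KO1, while KO2 had 2 higher and 3 lower (medians -0.04 and -0.61). Among all genes 35.6% were higher and 31.9% lower in KO1, and 38.1% and 26.6% in KO2. SERPINB9, the inhibitor with which killer cells protect themselves from granzyme B, went from 5.77, 5.85 and 5.15 FPKM in WT to 2.61, 2.76 and 2.93 in KO1 and 2.81, 2.60 and 3.03 in KO2. The WT libraries lay above all others, and the gene passed as lower in both lines (log2 change -0.81 ± 0.08 in KO1 and -0.79 ± 0.08 in KO2). SERPINE2, an inhibitor of trypsin-like proteases, went from 2.69 ± 0.634 to 15.6 ± 0.945 and 6.78 ± 0.254, and SERPINB8 from 12.0 ± 0.285 to 23.3 ± 0.202 and 21.3 ± 0.673. SPINT2, which inhibits serine proteases at the cell surface, passed as lower in KO2 only (10.4 ± 0.551 against 17.7 ± 1.35 FPKM in WT), and KO2 was also lower than KO1 (-0.65 ± 0.07).

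**Figure D4:**
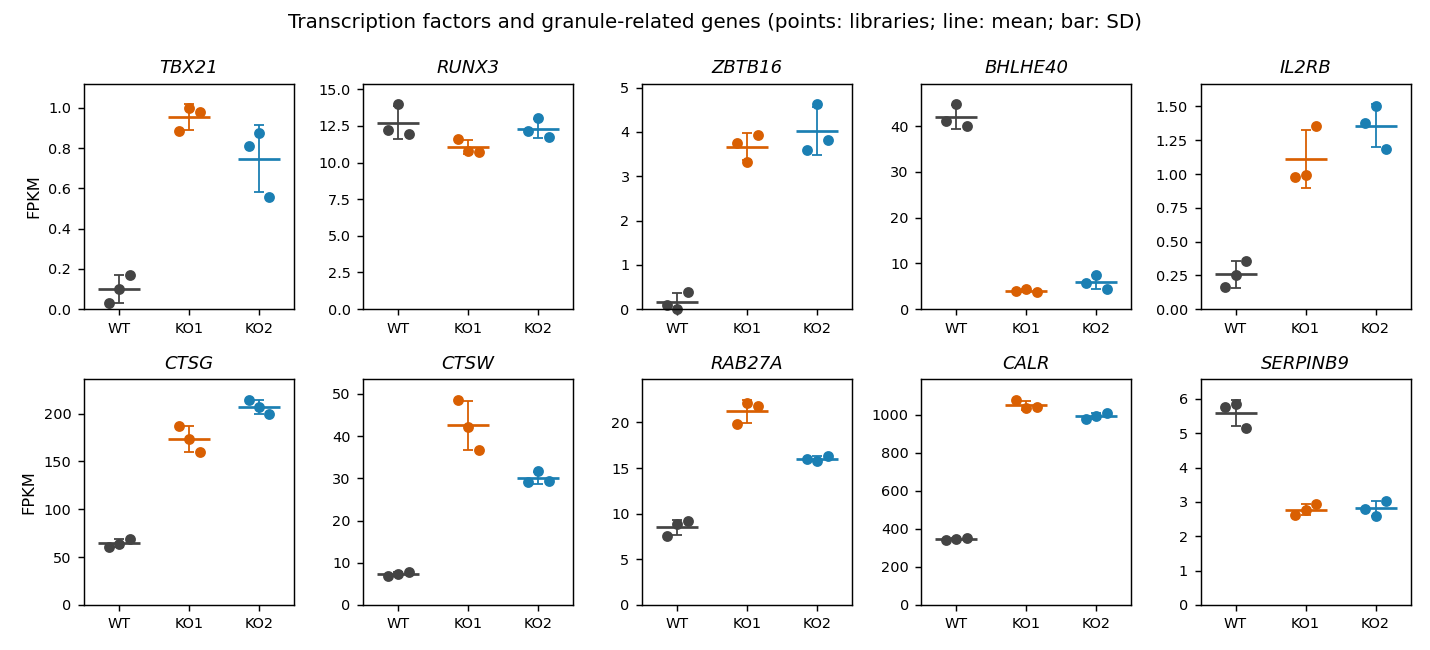
FPKM in each library (points), with the mean (line) and SD (bar) of 3 libraries per group, for 10 genes that are not members; each panel has its own axis from 0. TBX21 reaches 0.558 to 1.00 in the edited lines, CTSW and CTSG are higher in both, and BHLHE40 and SERPINB9 are lower in both.

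Receptors for cytokines that act on killer cells were read together with their signalling partners. Of 26 listed genes of cytokine signalling 16 were tested. Those that passed were 7 higher with 7 lower in KO1 and 6 higher with 6 lower in KO2 (medians -0.06 and -0.01). Over all genes 35.6% passed as higher and 31.9% as lower in KO1, and 38.1% and 26.6% in KO2. IL2RB, the receptor chain shared by interleukins 2 and 15 and itself a gene that EOMES can activate, went from 0.163, 0.252 and 0.359 FPKM in WT to 0.980, 0.995 and 1.36 in KO1 and 1.38, 1.51 and 1.19 in KO2. It passed as higher in both lines (log2 change 0.74 ± 0.11 and 0.91 ± 0.11), and the lines overlapped. IL2RB entered the fit through edited libraries alone, so these calls are a description only. JAK3, the kinase of this receptor family, went from 1.5 ± 0.106 to 7.38 ± 0.284 and 4.41 ± 0.137. IL7R fell from 11.7 ± 0.484 to 0.996 ± 0.139 and 2.7 ± 0.153, and TGFBR2, through which TGF-beta restrains killer cells, fell from 15.6 ± 0.769 to 5.91 ± 0.167 and 8.32 ± 0.528. Ligands and signalling partners of the lectin-like receptors formed a list of 23 genes, of which 17 were tested. KO1 had 4 higher and 10 lower (median -0.21), and KO2 had 5 higher and 9 lower (median -0.19). These counts are to be read beside the same shares of all genes. HLA-E, the ligand of CD94 with NKG2A, fell from 29.4 ± 1.82 FPKM to 10.7 ± 1.16 and 13.9 ± 0.416. ULBP2, a ligand of NKG2D, went from 7.22 ± 0.498 to 4.16 ± 0.665 and 5.65 ± 0.145, and CLEC2B from 6.63 ± 1.21 to 2.87 ± 0.290 and 3.61 ± 0.501. SH2D1A (SAP), the adaptor of SLAM receptors, fell from 88.3 ± 6.87 to 48.8 ± 2.27 and 47.4 ± 1.08.

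The genes beside each member were read in RefSeq order on GRCh38.p14, with no coordinates taken from it because the files' build is hg19. Beside GZMB, the nearest tested gene past GZMH was CTSG, which encodes cathepsin G, a serine protease of the same family best known from neutrophil granules. CTSG stood at 60.9, 63.6 and 69.0 FPKM in WT, at 187, 174 and 160 in KO1 and at 214, 207 and 199 in KO2. The groups did not overlap, and its mean was 2.69 and 3.21 times that of WT (log2 change 1.41 ± 0.06, limma adjusted p = 1.41e-08 in KO1; 1.67 ± 0.06, adjusted p = 7.94e-09 in KO2). On the other side of GZMB, STXBP6, which binds SNARE proteins, went from 0.109 ± 0.0437 to 1.66 ± 0.356 and 0.978 ± 0.110. Near GZMA and GZMK, MCIDAS, a regulator of multiciliated cells, went from 0.649 ± 0.154 to 3.37 ± 0.369 and 2.59 ± 0.351, while the next tested gene, CCNO, did not pass (adjusted p = 0.644 and 0.843). On the other side of that pair, SNX18 (0.48 and 0.59 on the log2 scale) and ARL15 (0.45 and 0.43) passed as higher in both lines. NOVA1, beyond STXBP6, passed as lower in both (-0.51 and -0.42).

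Around PRF1, PALD1 and SGPL1 passed as higher in both lines by 0.47 to 0.64 on the log2 scale, as did EIF4EBP2 (0.26 and 0.24), while PCBD1 did not pass in either line. Beside EOMES, CMC1 and NEK10 did not pass in either line, SLC4A7 passed as lower in both (-0.39 and -0.40) and AZI2 as higher in both (0.29 and 0.36). Around GZMM, CDC34 and TPGS1 on one side did not pass in either line, and BSG (0.44 and 0.50) and HCN2 (0.45 and 0.27) on the other side passed as higher in both. Beside NKG7, ETFB fell in both lines (-0.89 and -0.66) and CTU1 passed in neither. On its other side ZNF175 stood at -0.28 in KO1, where it passed, and at -0.11 in KO2 (limma adjusted p = 0.149), and ZNF613 at 0.43, where it passed, and -0.17 (adjusted p = 0.0715). Beside GNLY, ST3GAL5 passed as lower (-0.28 and -0.52) and POLR1A as higher (0.45 and 0.51) in both lines. On the other side of GNLY, C2orf68 (-0.42) and USP39 (0.12) passed in KO1 and not in KO2 (adjusted p = 0.136 and 0.985). Around the complex that holds KLRK1 and KLRD1, GABARAPL1 (-0.64 and -0.43) and CLEC2B (-0.97 and -0.72) on one side passed as lower in both lines, and MAGOHB (0.87 and 0.80) on the other as higher. KLRAP1, a pseudogene of the family, went from 0.820 ± 0.172 FPKM to 2.03 ± 0.405 and 1.57 ± 0.0997 and passed as higher in both. It entered the fit through edited libraries alone, so these calls are a description only.

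The genes whose levels followed GZMA most closely were sought among 1156 tested genes whose group means spanned at least 1 on the log2 scale. By Pearson's r over the 9 libraries, which share their groups, the closest were LRIG1 (r = 0.996), RAB27B (0.994), RGS18 (0.993), EFEMP1 (0.987) and DTX1 (0.978). RAB27B, the paralogue of the granule-docking RAB27A, went from 0.223 ± 0.0459 FPKM to 0.832 ± 0.0845 in KO1 and 3.28 ± 0.0751 in KO2. DTX1, a NOTCH regulator, went from 15.8 ± 1.04 to 24.5 ± 2.01 and 44.3 ± 1.52. Among the members, EOMES ranked 46 with r = 0.896, GZMK ranked 53 with 0.890, NKG7 ranked 56 with 0.888 and PRF1 ranked 287 with 0.691. These values describe likeness across 3 groups and carry no test.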

How the data were processed

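Polyadenylated RNA of 9 Jurkat libraries (3 per group) was read from 1 table of FPKM values deposited by the authors, with a column per library. The submitters' processing notes list STAR 2.5.0b, Cufflinks 2.2.1, bedtools 2.7.0 and hg19, without roles. Annotation, strandedness and scaling were not given in the sources used here. Of 26228 rows, 38 hold text and were left out. FPKM are not counts, so log2(FPKM + 1) was fitted with limma 3.58.1 (R 4.3.3), 1 mean per group, all 9 libraries, a mean-variance trend and no covariates, on 11737 genes with FPKM of 1 or more in 3 or more libraries. Benjamini-Hochberg adjusted p under 0.05 over all genes was the threshold. The fit was tested on simulated data. Exact permutation tests (scipy 1.17.1) served members under the filter. A value of 0 may be a failed estimate, and counting intervals are not given because read totals are unknown. Members and lists were chosen with earlier results of these data known. All 10 members were named, with up to 4 genes per list by largest change among those that passed, 9 genes fixed by name, tested neighbours and the 5 genes most like GZMA; TNFSF10 and CD226 were added after their values were seen. Alternatives were other filters, pseudocounts, scalings, moderation, libraries and a replicate block.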

Additional observations from a re-analysis of the deposited data

Results flagged for a closer look

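EOMES, GZMA and GZMK changed by different amounts in the edited lines, as read from the comparison of KO2 with KO1. The change was larger in KO2 by 1.74 on the log2 scale for EOMES (limma adjusted p = 2.75e-06), by 1.40 for GZMA (adjusted p = 1.70e-06) and by 1.28 for GZMK (adjusted p = 0.000137), and all 3 KO2 libraries lay above all 3 KO1 libraries for each gene. EOMES and GZMK entered the fit through their KO2 libraries, since fewer than 3 other libraries reached 1 FPKM, so their p-values are a description only. Without a filter the adjusted p was 4.2e-05 for EOMES and 0.000607 for GZMK (limma). Each edited line is 1 line, so the difference between the lines cannot be told apart from a difference between single derived cultures.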

How the results depend on the processing

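Of the members' fold changes recomputed under the alternatives, 320 kept their direction and their side of the threshold, 4 newly passed, 3 no longer passed and 3 turned. The directions that turned belonged to values that had not passed in KO1: GZMK was -0.18 after quantile normalization and ran from -0.038 (without KO1 replicate 1) to 0.076 with 1 library left out, and EOMES ran from -0.13 to 0.064 (without WT replicate 1). With a filter at 5 FPKM, GZMA and NKG7 were the only members still tested. Those that passed were 2 for KO1, 2 for KO2 and 1 for KO2 against KO1, and both genes kept the calls of the main fit. Over all genes 6349, 6153 and 2901 of 9119 passed. Leaving out 1 library at a time, 4 members passed in KO1 in each case, 5 to 6 in KO2 and 3 to 4 between the lines. Deviations of same-numbered libraries from different groups had correlations from -0.287 to 0.318, and those of other-numbered libraries from -0.266 to 0.343. With 3 libraries per group, these ranges cannot decide whether the replicate numbers in the titles pair the libraries. With a replicate block, 4, 6 and 3 members passed, as without it, and 7694, 7339 and 3135 genes passed over the whole table. Depth limits GNLY, KLRK1 and KLRD1, whose values are a few steps above 0. It also limits GZMB, whose nearest KO1 and KO2 libraries stood at about the same value when scaled by relative depth.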

Other observations

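The proteins that granzymes and death receptors act on in a target cell formed a list of 24 names, of which 22 genes were tested. KO1 had 8 higher and 9 lower (median log2 change 0.03), and KO2 had 8 higher and 6 lower (median 0.01). Over all genes 35.6% passed as higher and 31.9% as lower in KO1, and 38.1% and 26.6% in KO2. CASP10, a death receptor caspase, fell from 3.24 ± 0.495 FPKM in WT to 1.02 ± 0.0883 in KO1 and 0.528 ± 0.204 in KO2. CASP8, the initiator caspase, fell from 35.5 ± 0.909 to 29.3 ± 1.09 and 22.6 ± 2.26. GSDMB, a pore-forming gasdermin that granzyme A cleaves, fell from 6.33 ± 0.597 to 2.12 ± 0.159 and 3.28 ± 0.0618. NME1, a nuclease of the granzyme A pathway, rose from 172 ± 7.14 to 252 ± 15 and 287 ± 7.23. All 4 passed in both lines.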
